A study of Rattus norvegicus with 14 samples.

Results

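Windows of 1 kb whose DNA methylation level varied widely between the samples of a rat line bred for high running capacity, and no more than usual between those of the low-capacity line, are described here. They were chosen by their spread: a sample SD of 12 percentage points or more over the 6 samples of the high-running-capacity line (HCR) and of 5 points or less over the 8 samples of the low-running-capacity line (LCR). Of 194367 windows in the table, 131799 lay on chromosomes 1 to 20 and had a value in all 14 samples, and 636 of these (0.483%) met both limits. The samples are genomic DNA of the left soleus, a slow postural muscle of the hind limb, from female rats aged 23 to 24 months, and the assay is reduced representation bisulfite sequencing (RRBS). Both lines descend from the genetically heterogeneous N:NIH stock and were in generation 44 of selective breeding, and the labels name no treatment. The labels number the samples within a line but do not say that each is a different rat, so p-values measure only the spread between these samples.

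Methylation of cytosines in CpG pairs is laid down and copied at cell division by DNA methyltransferases. CpG-rich starts of active genes are usually unmethylated, most other CpGs are methylated, and partly methylated sequence often lies at the borders or in regulatory elements. RRBS cuts DNA with MspI at CCGG and reads mainly CpG-rich fragments, and a window level is the share of methylated calls over the cytosines covered. In bulk muscle DNA, a different mixture of cells and a different level within 1 cell type cannot be told apart. Genes at the windows were not analysed here, so windows are given by position on rn7.

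Read depth is unknown, because the values are percentages. The number of windows without a value ranged from 4806 to 17161 in HCR samples, with the most in HCR3, and from 2705 to 23521 in LCR samples, with the most in LCR7. The mean absolute deviation from the median of all 14 samples, over the 131799 windows, was 3.82 to 4.35 points in HCR samples and 3.01 to 4.81 points in LCR samples. The LCR sample LCR7 thus had both the most missing windows and the largest deviation of any library.

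Over the 636 windows the HCR SD ran from 12.01 to 31.0 points with a median of 13.6, and the LCR SD from 0.508 to 4.99 points with a median of 4.17. These values chose the windows and carry no test. The medians over all 131799 windows were 4.39 points in HCR and 4.33 points in LCR. Most of the set lay near a limit: 221 windows had an HCR SD under 13 points, 355 had an LCR SD over 4 points, and 30 had an HCR SD of 20 points or more. Both limits cut through a continuous cloud. The window nearest inside the HCR limit, at 95528001 to 95529000 on chromosome 14, had an HCR SD of 12.01 points, and the nearest outside, at 64194001 to 64195000 on chromosome 13, had 11.997 points. The next 2 inside had 12.0098 points (39542001 to 39543000, chromosome 12) and 12.0107 points (70924001 to 70925000, chromosome 6). The next 2 outside had 11.99 points, at 83266001 to 83267000 on chromosome 3 and at 204737001 to 204738000 on chromosome 1. As far as the HCR limit goes, only this small step in the SD separates the first 3 from the last 3. At the LCR limit the nearest windows inside had 4.99 points (23588001 to 23589000 on chromosome 6, 97542001 to 97543000 on chromosome 8 and 34310001 to 34311000 on chromosome 19). Those outside had 5.0007, 5.003 and 5.009 points (17694001 to 17695000 on chromosome 14, 3254001 to 3255000 on chromosome 19 and 244489001 to 244490000 on chromosome 1).

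**Figure D1:**
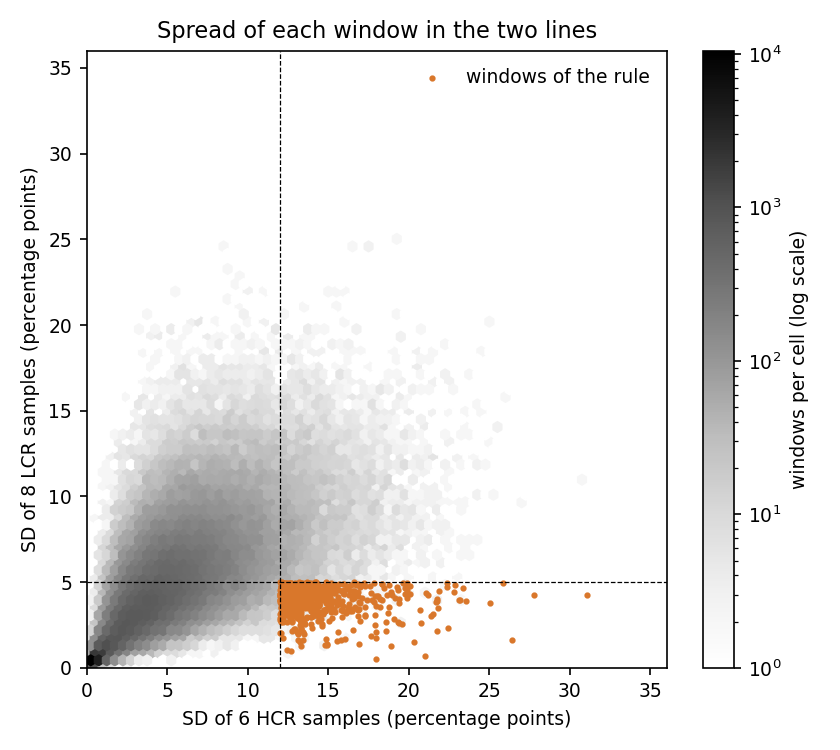
SD of the 6 HCR samples (x axis) against SD of the 8 LCR samples (y axis), both in percentage points, for 131799 autosomal windows; grey shade is the number of windows per cell on a log scale, orange points are the 636 windows and dashed lines the limits of 12 and 5 points. The orange points are the lower right corner of a continuous cloud, densest next to the limits.

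The 10 windows with the largest HCR spread are lettered A to J in order of falling SD. In windows A to J the HCR sample farthest from the HCR median was mostly a low one, and in several it stood alone. Window A, at 56733001 to 56734000 on chromosome 11, had 5.77% in HCR1 and 76.4% to 84.6% in the other HCR samples, with an HCR median of 81.5%. The LCR samples of window A ran from 74.2% to 86.6% with a median of 83.4%. HCR1 alone was low, and the other HCR samples lay inside the LCR range. Its HCR mean was 68.8% ± 31.0 (SD, n = 6) and its LCR mean 82.3% ± 4.23 (SD, n = 8).

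Window D, at 74008001 to 74009000 on chromosome 10, was likewise low in HCR1, at 8.73%, while the other HCR samples ran from 51.9% to 78.8%. Its LCR samples ran from 56.9% to 72.6% with a median of 69.03%. Window E, at 22874001 to 22875000 on chromosome 7, had 25% in HCR5 against 84.8% to 87.4% in the other HCR samples. The other 5 HCR samples lay in a narrow band at the lower end of the LCR samples, which ran from 86.3% to 99.2%. Window H, at 86330001 to 86331000 on chromosome 5, had 5.13% in HCR3 and 50.5% to 65.2% in the other HCR samples, with LCR samples from 53.4% to 66.3%. In each of windows A, D, E and H 1 HCR sample was far below all other samples of both lines.

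The sample HCR6 was the low one in windows B, F and G. Window F, at 68251001 to 68252000 on chromosome 10, had 15.4% in HCR6, 55.0% and 55.2% in HCR4 and HCR3, and 74.1% to 76.5% in the other HCR samples. The LCR samples of window F ran from 66.0% to 77.1% with a median of 70.4%. Its HCR samples thus fell at 3 heights, the highest of which was that of LCR. Window G, at 25928001 to 25929000 on chromosome 13, had 21.9% in HCR6, 61.8% in HCR5 and 74.4% to 82.05% in the others, with LCR samples from 62.7% to 75.7%. Window B, at 11110001 to 11111000 on chromosome 10, had no common HCR level: 9.92% in HCR6, 32.4% in HCR2, 51.7% in HCR3 and 70.5% to 83.02% in HCR4, HCR1 and HCR5. All 8 LCR samples of window B lay between 32.6% and 47.6%, inside the span of the HCR samples.

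In windows C, I and J the HCR sample farthest from the HCR median was a high one. Window C, at 115484001 to 115485000 on chromosome 7, had 74.6% in HCR5 and 41.7% in HCR6, and 6.17% to 19.1% in the other HCR samples. Its LCR samples ran from 6.03% to 10.8% with a median of 8.20%, so that 4 HCR samples were near the LCR level and 2 far above it. Window I, at 98514001 to 98515000 on chromosome 10, read exactly 100.0% in HCR1 and 68.2% in HCR2, and 39.5% to 46.2% in the other HCR samples. Its LCR samples ran from 52.2% to 65.2%, so that no HCR sample lay inside the LCR range. Window J, at 21685001 to 21686000 on chromosome 2, split into 3 samples at 43.6% to 56.8% (HCR3, HCR1, HCR2) and 3 at 82.2% to 100.0% (HCR4, HCR6, HCR5). The LCR samples of window J ran from 49.3% to 63.1%, overlapping its lower HCR samples.

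**Figure D2:**
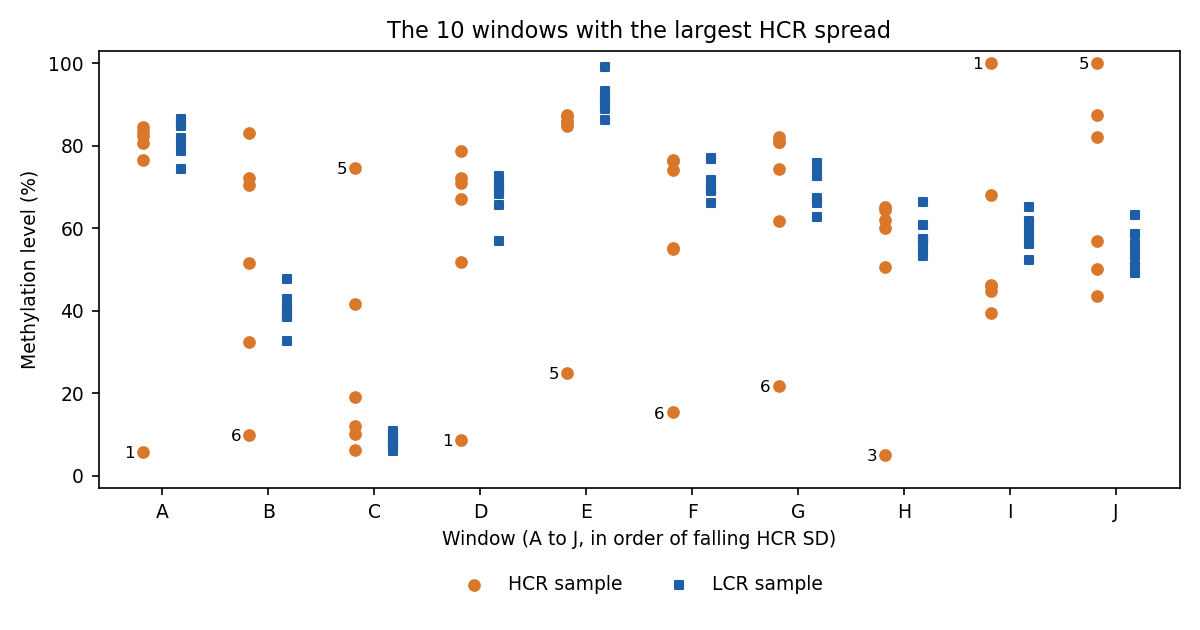
Methylation level in percent (y axis) of each HCR sample (orange circles, n = 6) and LCR sample (blue squares, n = 8) in the 10 windows with the largest HCR SD, A to J (x axis); the digit names the HCR sample farthest from the HCR median. In A, D, E, F, G and H the named HCR sample is the lowest, at 5.13% to 25%, and lies below all LCR samples. In each of these but A, at least 1 other HCR sample also lies below the LCR range.

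The same form, 1 sample apart from the other 5, was the most frequent in the whole set. With the HCR samples of each window put in order, the largest gap lay below the highest sample or above the lowest one in 436 of 636 windows (68.6%). It separated 2 samples from 4 in 137 (21.5%) and 3 from 3 in 63 (9.91%). The single sample was the lowest in 260 windows and the highest in 176. A large gap next to an extreme value is common in any set of 6, and over all 131799 windows 57.02% had this form. Among the other windows with an HCR SD of 12 points or more the share was 58.7%. Where 1 sample stood apart, the SD of the other 5 had a median of 7.33 points, above the LCR median. Of these 436 windows, 101 had other HCR samples as uniform as the LCR limit asks, at 5 points or less. In the rest of the 436, the other 5 HCR samples also spread beyond that limit.

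Measured against LCR, few HCR samples carried the spread in a given window. An HCR sample lay more than 10 points outside the range of the 8 LCR samples in 1 of 6 cases in 336 windows, in 2 of 6 in 201, in 3 of 6 in 56, in 4 of 6 in 24 and in 5 of 6 in 12. There were 0 windows in which all 6 did, and 7 in which none did. Such samples lay only below the LCR range in 286 windows, only above it in 257 and on both sides in 86. Of all HCR values in the set, 39.6% fell inside the LCR range of their window, against 73.2% over all windows. Both limits favour HCR values outside the LCR range, so this contrast and the counts above only describe the set. Where all 6 HCR values fell outside the LCR range, as in 39 windows, they could still lie on both sides of it, as in window I.

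The HCR samples did not contribute equally. HCR3 was the sample farthest from the HCR median in 179 windows (28.1%) and HCR1 in 149 (23.4%), followed by HCR4 in 96, HCR6 in 91, HCR2 in 65 and HCR5 in 56 (8.81%). Over all 131799 windows these shares were more even, from 14.4% for HCR5 to 19.3% for HCR3. In the 1652 windows with an SD of 12 points or more in both lines, HCR3 had 21.8%, HCR1 18.9% and HCR5, the least, 12.0%. HCR3 and HCR1 are also the HCR libraries with the most windows without a value, at 17161 and 12895, and the part of library quality in their count was not tested. The direction differed by sample: HCR3 was farthest below the median in 154 of its 179 windows, whereas HCR4 was farthest above it in 77 of its 96. HCR1 was divided, with 77 above and 72 below. The mean level over the 636 windows followed this, at 37.2% in HCR3, 43.4% in HCR6, 45.9% in HCR1, 46.1% in HCR5, 46.7% in HCR2 and 49.7% in HCR4. The LCR samples, chosen to be close, ranged from 42.7% to 44.4% there. HCR3 was the lowest HCR sample over all windows as well, at 33.8% against 35.4% to 36.7% in the others. With each library centred on its own mean, HCR3 was still farthest in 170 of the 636 windows, and below the median in 142 of those.

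**Figure D3:**
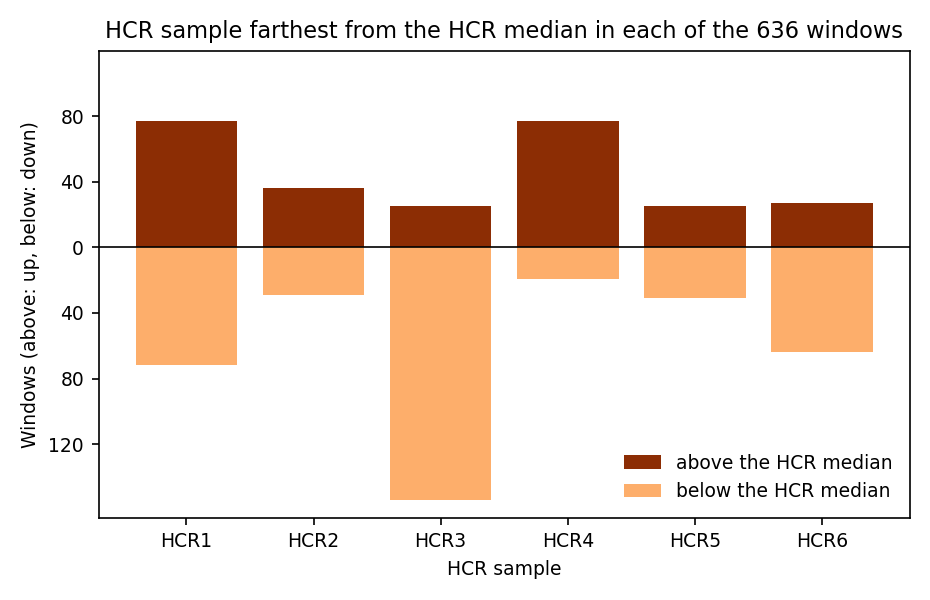
Number of windows, of 636, in which each HCR sample (x axis) was the farthest from the median of the 6 HCR samples, upward for levels above that median and downward for levels below it. HCR3 has 154 windows below and 25 above, and HCR4 has 19 below and 77 above.

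When 2 or 3 samples stood apart, the sets were varied. In the 137 windows with 2 apart, the most frequent pairs were HCR3 with HCR6 in 22 windows, HCR1 with HCR3 in 18, and HCR1 with HCR4 and HCR2 with HCR3 in 16 each. In the 63 windows divided 3 and 3, the lower samples were most often HCR1, HCR2 and HCR3 or HCR1, HCR3 and HCR6, in 9 windows each. No single grouping of the HCR samples accounted for the set.

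Exact values of 0 or 100% were somewhat more frequent at these windows. At least 1 HCR sample read exactly 0 or 100% in 45 of the 636 windows, and exactly 100% in 12. Among windows with an LCR mean of 10 to 90%, where such a value is far from the LCR level, the share was 3.67% of 572 windows, against 0.991% of all windows of that LCR level. A value so far from the others raises the HCR SD that chose the windows, so nothing is read from this contrast. With any of the 14 samples at exactly 0 or 100%, the shares were 8.49% of the set and 6.75% of all windows. The number of reads behind these values is unknown.

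The direction of the HCR spread depended on where LCR stood. The windows held few unmethylated ones: 62 of 636 (9.75%) had an LCR mean under 10%, a class with 36836 of all windows, and 211 (33.2%) had one of 50 to 70%. Of the windows that were uniform in LCR, 0.175% belonged to the set where LCR was under 10%, 1.36% at 10 to 30%, 2.05% at 30 to 50%, 1.53% at 50 to 70% and 0.785% at 70% or more. At low LCR levels the HCR mean was higher, in 62 of 62 windows under 10% and in 125 of 138 windows of 10 to 30%. At high LCR levels it was lower, in 161 of 211 windows of 50 to 70% and in 68 of 76 at 70% or more. Levels are bounded at 0 and 100%, so an HCR SD of 12 points next to a uniform LCR level near a bound leaves mainly 1 direction. Over the whole set 332 windows had a higher and 304 a lower HCR mean, with a median difference of 0.520 points and quartiles of -4.41 and 6.82. Over all windows 64.8% had a higher HCR mean, and the median difference was 0.503 points. The line means lay within 5 points of each other in 281 of the 636 windows and 10 points or more apart in 140.

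**Figure D4:**
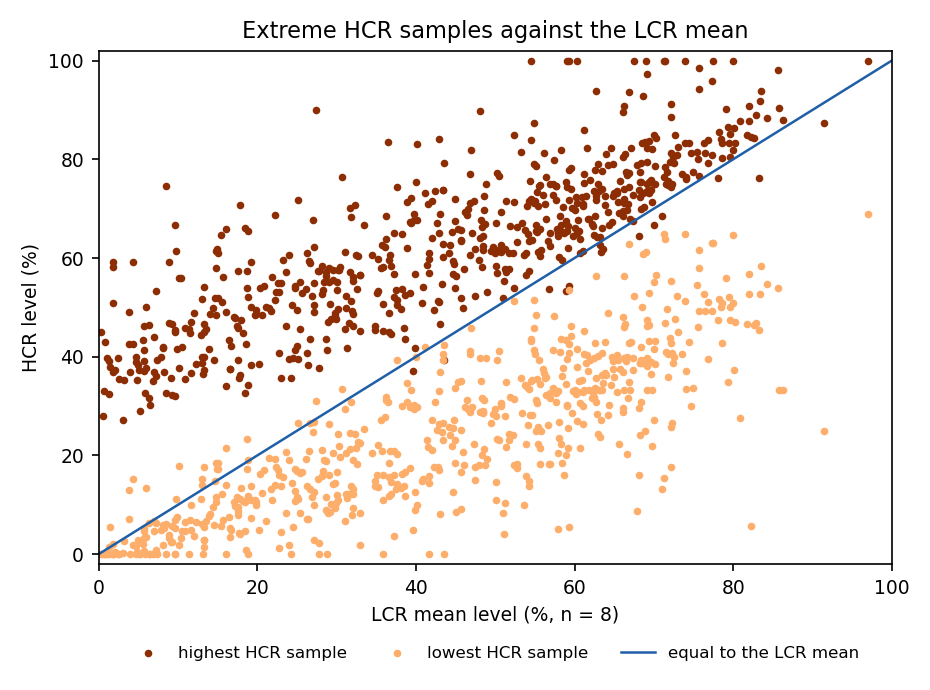
Level of the highest (dark) and lowest (light) HCR sample in percent (y axis) against the LCR mean level in percent (x axis, n = 8) in the 636 windows; the line marks equality. Under an LCR mean of 10% mainly the highest HCR sample departs from the line, and at 70% or more mainly the lowest one.

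Among the 5 windows with the smallest LCR SD, 4 were nearly unmethylated in LCR. At 16383001 to 16384000 on chromosome 14, all 8 LCR samples lay between 0.0% and 1.35% (SD 0.508 points), while HCR1 had 45.0%, HCR6 33.2%, HCR4 17.9%, HCR2 9.20%, HCR3 1.96% and HCR5 0.0%. At 124730001 to 124731000 on chromosome 7, LCR samples ran from 1.11% to 2.86%. HCR samples there ran from 2.00% in HCR1 through 16.7% in HCR6 to 58.1% in HCR3, with a median of 35.1%. In both windows the HCR samples were graded between the LCR level and a much higher one, and a different sample was the highest. At 79850001 to 79851000 on chromosome 7, HCR1 read 0.0% and the other HCR samples 11.4% to 33.1%, with LCR samples from 0.0% to 2.46%. At 17773001 to 17774000 on chromosome 16, HCR4 and HCR5 read 0.0%, HCR3 5.13% and the other HCR samples 16.8% to 28.1%, with LCR samples from 0.0% to 3.01%. By limma on all windows, those at 16383001 (adjusted p = 0.0727) and 17773001 (adjusted p = 0.234) were not called for a line difference. The remaining window of the 5 most uniform in LCR was partly methylated: at 91859001 to 91860000 on chromosome 14 the LCR samples ran from 24.7% to 28.0% and the HCR samples from 26.5% to 59.02% with a median of 38.2%. In this window HCR6 and HCR2 lay within the LCR range and HCR4 was highest.

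Among windows with an LCR mean under 10%, the largest HCR spreads after window C were on chromosomes 13 and 17. At 47197001 to 47198000 on chromosome 13, HCR4 had 66.7% and the other HCR samples 6.94% to 27.2%, with LCR samples from 3.82% to 18.4%. At 7969001 to 7970000 on chromosome 17, HCR4 again was highest, at 59.2%, with HCR2 at 33.4%, HCR1 at 25%, HCR3 at 23.0%, HCR5 at 3.8% and HCR6 at 0.0%. The LCR samples of the latter ran from 0.0% to 8.47%. The first window is a case of 1 departing sample and the second a graded one.

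A difference in level between the lines was called in few of these windows. By limma on log2 logit levels with Benjamini-Hochberg adjustment over 135802 windows (adjusted p under 0.05), 16 of the 636 windows (2.52%) were called. Of all windows on chromosomes 1 to 20, 0.572% were called. Of the 16, 13 were higher in HCR (0.407% of all windows) and 3 lower (0.165%). At an unadjusted p under 0.05 there were 123 (19.3%), against 11.0% of all windows. The samples of the lines did not overlap in 9 of the 636 windows, against 0.712% of all windows. HCR was higher in 6 of them, against 0.561% of all windows, and lower in 3. The spread limits used the same values, so nothing is read from these shares. The fit takes a common variance for both lines, whereas these windows were chosen for unequal spread. With the wider spread in the smaller group, p-values of single windows can be too small, and the calls are approximate. The count of calls was 9 without LCR1 or without LCR4, and 10 without LCR5, LCR7 or LCR8.

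The called window with the lowest p was at 232144001 to 232145000 on chromosome 1. Its HCR samples ran from 15.2% in HCR3 to 59.1% in HCR5 with a median of 46.9%, and its LCR samples from 1.61% to 6.61% with a median of 4.31%. The lines did not overlap (difference 38.4 points, log2 logit difference 3.79, SE 0.44, limma adjusted p = 0.000651). In the window on chromosome 3, at 164980001 to 164981000, HCR samples ran from 13.1% to 49.2% and LCR samples from 0.515% to 7.68% (difference 26.5 points, limma adjusted p = 0.0024). In the window on chromosome 15, at 97263001 to 97264000, HCR samples ran from 5.48% to 37.9% and LCR samples from 0.0% to 6.28%, and they overlapped only at HCR1 (limma adjusted p = 0.00975). In these 3 windows the HCR samples stood above LCR by amounts that differed widely between them.

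The other two of the 5 lowest p-values lay on chromosome 7. At 127781001 to 127782000 HCR samples ran from 13.3% to 50% and LCR samples from 2.54% to 12.3% (limma adjusted p = 0.0118). At 127987001 to 127988000 they ran from 17.9% to 56.0% and from 5.40% to 14.9% (limma adjusted p = 0.0118). The highest HCR samples were HCR2 and HCR3 in the first and HCR4 and HCR5 in the second. Of the 3 windows called lower in HCR, the largest difference was at 249238001 to 249239000 on chromosome 1, a window chosen after its values were seen. There HCR6 stood at 66.6%, inside the LCR range of 61.6% to 75.02%, and the other HCR samples at 27.2% to 50.4% (difference -28.04 points, limma adjusted p = 0.014).

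At 2 to 10 kb from the windows, the spread of HCR was close to that of all windows. Of the 636 windows, 207 had at least 1 adjacent window that was measured in all samples and was not in the set, 228 such neighbours in all. Leaving out neighbours in the set (4 windows had one adjacent) lowers the neighbours' HCR shares, whereas all windows include the set. The neighbours' SD had a median of 5.31 points in HCR and 5.64 points in LCR, and HCR had the larger SD in 53.1% of them, against 53.0% of all windows. The median of the paired difference, HCR minus LCR, was 0.166 points, beside 0.0589 points over all windows, and it turned to -0.0252 points without HCR3 and -0.00946 points without HCR6. An HCR SD of 12 points or more was found in 9.65% of the neighbours and an LCR SD of that size in 3.95%, against 5.42% and 3.55% of all windows. Next to the other windows with an HCR SD of 12 points or more, which were not uniform in LCR, these shares were 12.1% and 7.49%. At 2 to 10 kb the shares were 6.02% and 3.58%, close to those of all windows.

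Neighbours shared the departing sample weakly. In 22.8% of the 228 pairs the HCR sample farthest from the HCR median was the same in the window and its neighbour, and in 17.5% it also departed to the same side, against 18.2% and 10.9% of all adjacent pairs outside the set. The HCR levels of a window and its neighbour, over the 6 samples, had a median correlation of 0.23, against 0.07 over all adjacent pairs; the pairs share their libraries. Next to the other windows with an HCR SD of 12 points or more these values were close to those of the set, at 20.6%, 14.7% and a median correlation of 0.19. At 2 to 10 kb the median was 0.10. One neighbour with its own HCR spread, chosen after its values were seen, lay at 25385001 to 25386000 on chromosome 2: HCR4 had 55.9%, HCR3 49.2% and the other HCR samples 11.7% to 35.0%. In the window beside it, at 25386001 to 25387000, HCR3 had 35.0%, HCR4 33.0% and the other HCR samples 0.0% to 11.3%, with LCR samples from 3.96% to 8.81%. The same samples were thus highest in both.

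The windows were mostly single in the genome. Another window of the set lay within 100 kb of 63 of the 636 (9.91%), while 8.61% of all windows on these chromosomes had one of the set within that distance. With the set chosen anew without 1 sample it was larger in most cases, and the share was 12.3% without HCR2 (99 windows, 10.8% of all windows), 13% without HCR5 (105, 10.7%), 12.5% without LCR7 (107, 11.4%) and 13.1% without LCR8 (97, 9.73%). Without HCR1 it was below that of all windows, at 8.4% against 9.08%. Within 1 Mb the shares were 50.3% and 50.2%. Only 4 windows had an adjacent one in the set (0.629%, against 0.176% of all windows). The share of windows that belonged to the set ran from 0.322% on chromosome 9 to 0.631% on chromosome 19, with 0.617% on chromosome 4 and 61 windows on chromosome 1. Local density of measured windows was similar, with a median of 24 other windows of the table within 100 kb, against 26 for all, though 57.5% had no adjacent measured window, against 49.5% of all. Of the 304 adjacent windows in the table, 23.7% lacked a value in some sample, against 17.9% next to all windows. HCR values were missing in 4.33% of cases and LCR values in 3.29%, against 3.01% and 2.97%.

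The adjacent pairs of the set, described after their values were seen, were unlike each other. At 1546001 to 1548000 on chromosome 4, HCR5 had 59.2% and 66.2% in the 2 windows, the other HCR samples 13.8% to 21.3% and 10.6% to 27.8%, and the LCR samples 14.0% to 23.4% and 13.4% to 27.2%. Here 1 sample carried a raised level across both windows, with a correlation of 0.98 over the HCR samples. At 19972001 to 19974000 on chromosome 7 HCR6 was the lowest HCR sample in the first window, at 27.3%, and the highest in the second, at 67.2% (correlation -0.61). Another pair, on chromosome 5 and not adjacent, was chosen after its values were seen and had the same 3 raised samples. At 38452001 to 38453000 HCR1, HCR2 and HCR5 had 89.9%, 85.2% and 80.2%, and the other HCR samples 39.8% to 47.6%, with LCR samples from 43.8% to 50.8%. At 38503001 to 38504000 they had 68.8%, 50% and 66.7%, and the other HCR samples 19.3% to 23.5%, with LCR samples from 14.6% to 27.9% (correlation 0.95). In both windows the HCR samples fell into a group at the LCR level and a group well above it.

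Such likeness was not the rule among windows near each other. Over the 27 pairs of the set at over 10 to 100 kb the median correlation of the HCR levels was 0.25, over 253 pairs at over 100 kb to 1 Mb it was 0.08, and over pairs on different chromosomes 0.11. The farthest HCR sample was the same in 22.2% of pairs at over 10 to 100 kb, in 13.04% at over 100 kb to 1 Mb and in 19.5% on different chromosomes.

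Joining windows of the set at most 500 kb apart left 407 alone and gave 25 groups of 3 or more, with 83 windows, of which 8 groups had 4 and none more. In the group of 4 with the largest summed HCR SD, on chromosome 10 from 73514001 to 74009000 (4 of 61 measured windows), HCR1 was the low sample in 2 windows: in window D and at 73927001 to 73928000. In the latter it had 21.1% and the other HCR samples 47.9% to 71.5%, with LCR samples from 34.2% to 47.8%. The other windows of this group had HCR4 as the highest sample, at 51.04% (73514001 to 73515000, LCR 10.3% to 20.9%), and HCR3, at 57.6% (73724001 to 73725000, LCR 22.7% to 37.0%). The departing sample therefore changed within the group.

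It also changed within the other 4 groups named. On chromosome 3 from 61674001 to 61988000 (4 of 40 windows) the farthest samples were HCR3, HCR6, HCR2 and HCR6. At 61858001 to 61859000 HCR2 had 46.2% and HCR4 27.3%, above LCR samples of 2.51% to 8.97%, and at 61987001 to 61988000 the HCR samples ran from 36.3% to 81.0% around LCR samples of 53.3% to 70.1%. At 61674001 to 61675000 HCR3 was lowest, at 18.4%, and at 61678001 to 61679000 HCR6, at 28.2%. On chromosome 7 from 127691001 to 127988000 (4 of 45) the 2 called windows described above were joined by one with HCR1 at 46.4% (127714001 to 127715000) and one with HCR4 at 37.4% (127691001 to 127692000). In all 4 the LCR samples were at 22.7% or less.

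On chromosome 5 from 56878001 to 57695000 (4 of 115) HCR6 was farthest in 3 of the 4 windows. It was low at 56878001 to 56879000 (25.6%, LCR 55.6% to 62.9%) and high at 57656001 to 57657000 (45.5%, LCR 5.43% to 17.3%). At 57694001 to 57695000 HCR6, HCR1 and HCR5 had 70% to 76.7% and the others 49.3% to 54.4%, with LCR samples from 69.2% to 83.9%. At 57164001 to 57165000 HCR3 was lowest, at 28.4%. On chromosome 8 from 55413001 to 56300000 (4 of 63) the farthest samples were HCR2, HCR6, HCR1 and HCR3. The last of them had 53.8% in HCR3 at 56299001 to 56300000, where the LCR samples ran from 78.1% to 90.8%. At 55802001 to 55803000 HCR1 had 43.7%, below LCR samples of 63.6% to 77.4%. At 55413001 to 55414000 HCR2 had 60.5% and at 55793001 to 55794000 HCR4 had 73.5% and HCR6 39.8%, around LCR samples of 56.9% to 69.7%.

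The number of such windows was set against every way to split the same 14 samples into 6 and 8, with the limits kept. The split by line gave 636, the median over all splits was 368, and the splits ran from 107 to 967. At least 636 windows were found in 198 splits (exact permutation test over all splits, one-sided p = 0.0659, two-sided p = 0.132). The smallest possible one-sided p of this permutation test was 0.000333, and the count did not pass 0.05. By the same exact permutation test, one-sided, the count did pass at an LCR limit of 4 points (p = 0.036). It also passed with each library centred on its mean (exact permutation, one-sided, p = 0.0456). As an approximate one-sided permutation test, it passed with each window centred within each line (p = 0.00266). Median counts rose with the number of HCR samples in the 6, from 311.5 in the 28 splits with none, through 373.5 in the 1120 splits with 3, to 511 in the 48 splits with 5. The counts themselves overlapped widely, at 129 to 915 with 3 and 376 to 903 with 5. Splits with more HCR samples share more of the line split, so the rise is no separate support. The largest count, 967, came from HCR1, HCR3, HCR4 and HCR6 with LCR6 and LCR7. LCR7 was in the 6 in all 10 of the largest counts, and the median count was 478 over splits with LCR7 in the 6 and 298.5 over the others. LCR7 is the library with the most windows without a value and the largest deviation; the part of these in the counts was not tested.

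**Figure D5:**
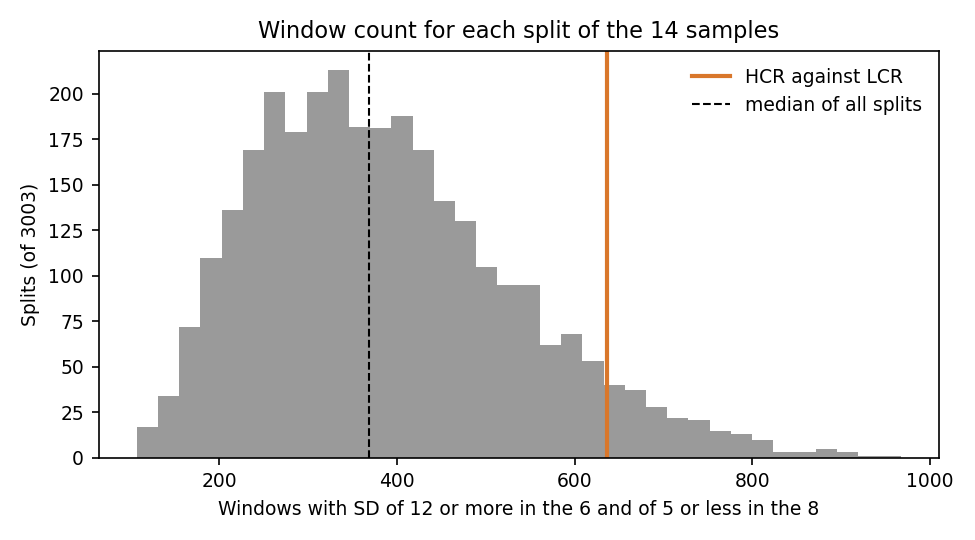
Histogram of the number of windows with an SD of 12 points or more in the 6 and of 5 points or less in the 8 samples (x axis) over all splits into 6 and 8 (y axis, number of splits); the orange line is the split by line, at 636, and the dashed line the median of the splits, at 368. The line split lies in the upper tail, with 198 splits at or above it.

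The mirrored windows, variable in LCR and uniform in HCR by the same limits, numbered 380 (0.288%). The median of the mirrored count over all splits was 460. The difference between the line-split counts of both kinds, 256, did not pass the same test (exact permutation, one-sided p = 0.127, two-sided p = 0.254). The groups are of unequal size, which the splits keep. The difference also did not pass at an LCR limit of 4 points (exact permutation, one-sided, p = 0.131) or with centred libraries (p = 0.105). With windows centred within each line its approximate permutation p was 0.0663, one-sided. Single libraries moved this comparison. Without LCR7 there were 856 windows variable in HCR and 323 mirrored ones, and the first count passed (exact permutation over 1716 splits, one-sided, p = 0.00758, and 0.021 for the difference). So it did with replicates 1 to 6 of each line, at 1057 against 337 (exact permutation over 924 splits, one-sided, p = 0.0119, and 0.0216 for the difference). Without HCR3 the counts were 589 and 581 (exact permutation over 1287 splits, one-sided, p = 0.207 for the first count and 0.313 for the difference). Without HCR1 and HCR3 together there were 605 and 794 (exact permutation over 495 splits, one-sided, p = 0.333 for the first count and 0.376 for the difference). An SD of 12 points or more without regard to the other line was found in 7142 windows in HCR and 4682 in LCR, and in both lines in 1652.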

How the data were processed

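RRBS libraries were made from 100 ng of DNA with MspI digestion, per the labels' protocols. Per the submitters' processing notes, FastQC, Trim Galore 0.6.10, Bismark and Bowtie2 were used with rn7; the coverage minimum and the window tool, not given in the sources used here, can change the levels. The values deposited are the percent methylation of each library in windows of 1 kb, without counts, and 0 sample columns were left unused. The windows, limits and tests were chosen with earlier results of these data known.

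Levels as deposited gave the SDs. Line differences were fitted over 135802 windows with limma 3.58.1 (R 4.3.3) on log2((level + 0.01)/(1 - level + 0.01)), level as a fraction, with a variance trend and Benjamini-Hochberg adjustment. The offset shrinks differences near 0 and 100%. Splits, gaps, neighbours and groups were counted in Python 3.11.15 with numpy 2.4.6 and pandas 2.3.3. Both procedures were tested on simulated data. Named windows are the 10 with the largest HCR SD, the 3 largest in each of 3 LCR level classes (bounds 10 and 70%), the 5 with the lowest LCR SD, the 5 groups with most windows, and the 5 called with the lowest p, 39 in all, and for the limits the 3 nearest on either side of each; others are said to be chosen after their values were seen. Alternatives were other limits and scalings, a robust spread, other window sets and leaving out samples. Leaving out HCR1 and HCR3 together, replicates 1 to 6 of each line, and windows without values of 0 or 100% were added after seeing the data. Sequences of the windows were not used here, since the tables at hand are of another build, GRCr8.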

Additional observations from a re-analysis of the deposited data

Results flagged for a closer look

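Tests for an outlying sample covered 86 sets of values, each of 1 line. They came from the 39 named windows (those nearest to the limits not included) and 4 library measures. There were 13 with a lowest or highest sample whose gap to the next, over the whole range, exceeded Dixon's critical value. The windows were chosen for their HCR spread, which favours such samples in HCR.

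Of 9 outlying HCR samples, 7 were low. They were HCR1 at 5.77% on chromosome 11 (56733001 to 56734000) and at 43.7% on chromosome 8 (55802001 to 55803000), and HCR5 at 25% on chromosome 7 (22874001 to 22875000). HCR6 was low at 15.4% on chromosome 10 (68251001 to 68252000) and at 21.9% on chromosome 13 (25928001 to 25929000). HCR3 was low at 5.13% on chromosome 5 (86330001 to 86331000) and at 53.8% on chromosome 8 (56299001 to 56300000). The high ones were HCR4 at 66.7% on chromosome 13 (47197001 to 47198000) and HCR6 at 45.5% on chromosome 5 (57656001 to 57657000). Of the 4 outlying LCR samples, LCR7 had 56.9% on chromosome 10 (74008001 to 74009000) and LCR4 53.3% on chromosome 3 (61987001 to 61988000). The others departed by few points from LCR levels near 0: LCR3 had 3.01% on chromosome 16 (17773001 to 17774000) and LCR4 6.28% on chromosome 15 (97263001 to 97264000).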

How the results depend on the processing

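The count of 636 followed the limits: it was 1526 and 172 at HCR limits of 10 and 15 points, and 281 and 1202 at LCR limits of 4 and 6 points. It was 1173 with the median absolute deviation (184 of them in the set), 1509 with windows of at least 4 values in each line, 1057 with LCR replicates 1 to 6 (544 in the set), and 589 to 856 without each sample. Centring each library also gave 636, of which 511 were in the set, and quantile normalization gave 650, of which 461 were. The split test passed at an LCR limit of 4 points (exact permutation, one-sided, p = 0.036), with centred libraries (p = 0.0456), with replicates 1 to 6 of each line (p = 0.0119) and with windows centred within each line (p = 0.00266, only approximate, since the residuals sum to 0 within the lines). Without each sample its one-sided p ran from 0.00758 to 0.207. Two-sided, the p was 0.0719 at an LCR limit of 4 points and 0.0912 with centred libraries (exact permutation). The 16 limma calls were 7 without moderation of the variance and 9 to 17 without each sample, with 9 without LCR1 or LCR4 and 10 without LCR5, LCR7 or LCR8. With a replicate block, 1 call was left, beside 4 with the same 12 samples and no block. Same-numbered samples correlated by -0.03 to 0.03, with 1 of 6 HCR samples best matched by its own number. These levels thus showed no pairing by number. Whether a number stands for a shared litter or day was not tested, and the labels do not say. The windows with 1 HCR sample apart numbered 428 to 582 without each HCR sample and 336 when counted as more than 10 points outside the LCR range. The neighbours' median difference in SD ran from -0.0252 (without HCR3) to 0.397 without each sample, and was -0.00946 without HCR6. Windows with another of the set nearby numbered 4 adjacent, 12 within 10 kb, 320 within 1 Mb, and 54 to 107 within 100 kb without each sample. The set itself is larger in the cases with the most (99 without HCR2, 105 without HCR5, 107 without LCR7 and 97 without LCR8). Without read counts, low coverage and true spread cannot be told apart in a single window.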

Other observations

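The same limits were applied to windows that the rule left out. On the X chromosome, 17 of 3758 windows with all 14 values (0.452%) were variable in HCR and uniform in LCR, and 9 (0.239%) were the mirrored kind. On chromosomes 1 to 20, windows that lacked a value in at least 1 sample met the limits at a higher rate than the complete ones (0.483% and, mirrored, 0.288%), and the mirrored kind was the more frequent. Of 56712 such windows, 873 (1.54%) were variable in HCR and uniform in LCR, and 932 (1.64%) were the mirrored kind. The difference between complete and incomplete windows was not tested, and in incomplete windows the SD rests on fewer samples.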
